A study of Mus musculus with 3 samples.

Results

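The 10 genes described here mark the epithelial stem cell compartment of the growing mouse tooth or belong to the Hedgehog pathway that acts on it. They are Sox2, Bmi1, Lgr5, Trp63, Lrig1, Igfbp5, Cd44, Gli1, Ptch1 and Shh, and they were found by the gene name given for each probe in the scanner files. All 10 were on the array, out of 24812 genes named through RefSeq, with 22 probes and 1 spot for each. Transcripts were measured in CLDE cells, a dental epithelial line that came from the mouse cervical loop and was grown in keratinocyte serum-free medium. The 3 arrays came from cells transfected with siRNA against Krt15 (siKrt15), with non-targeting siRNAs of the ON-TARGETplus type (siNeg) or with mock, all harvested 72 h later, and each group is 1 array. Lipofectamine RNAiMax carried the siRNAs. What the mock mix contained is not given in the sources used here. All groups rest on this 1 cell line. The labels of siNeg and siKrt15 contradict each other, since the titles and source names give these groups and the descriptions and treatment fields give them the other way round. The titles were followed. Krt15, the keratin that the siRNA targets, had a processed signal of 267 on the array titled siKrt15, against 1647 on the array titled siNeg and 2638 on the mock array, so the array low in Krt15 is the one whose title names that siRNA. Every direction given rests on the titles. In such bulk RNA, fewer cells of a kind and less RNA per cell cannot be told apart.

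The cervical loop at the base of the mouse incisor holds stem cells that renew the enamel-forming epithelium throughout life. Hedgehog signalling links the differentiating cells to this niche. Shh is a secreted ligand, Ptch1 is its receptor and holds the signal transducer Smo inactive until ligand binds, and Gli1 is a transcription factor that executes the response. Gli1 and Ptch1 are also transcribed in response to the signal, which makes their transcripts the usual readout of pathway activity. Sox2 is a transcription factor that marks dental epithelial stem cells, Bmi1 is a Polycomb repressor needed for their self-renewal, and Lgr5 is a receptor for R-spondins that augments Wnt signalling. Trp63 encodes p63, the transcription factor of stratified epithelia. Lrig1 is a transmembrane protein that restrains ErbB receptors and marks quiescent epithelial stem cells, Igfbp5 binds insulin-like growth factors, and Cd44 is a hyaluronan receptor.

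The probes decide which transcripts were read, and for Gli1, Trp63 and Cd44 the probes of 1 gene gave different answers, so their sequences are shown with those of Lrig1, the member with the highest difference, and of Ptch1. Each probe is 60 bases long. The whole probe is shown where it was taken to lie in coding sequence, and otherwise its first 30 bases, 5′ to 3′ as deposited. Here and below, probes called coding were taken as such without annotation. The TAG in capitals in the Cd44 probe is the stop codon that ends the open reading frame.
Lrig1 probe A_51_P116137: ggctagtctccatagttgatggttaatgtt
Lrig1 probe A_55_P2744324: tcaggaatcgttctggtgccttaatgcaca
Gli1 probe A_55_P2183587: ggggctgtatttagtctatgtatgttccag
Gli1 probe A_55_P2080658: tctgcaggagaaggtggggaagctagggcc
Trp63 probe A_55_P2161055: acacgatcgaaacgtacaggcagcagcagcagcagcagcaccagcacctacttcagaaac
Trp63 probe A_51_P216550: caaaaggtactttcttatagacatgatact
Trp63 probe A_55_P1952056: acttaccatgtgtcctggctatagcttttc
Trp63 probe A_52_P338796: cagtcccatataccatgcacttaactcttt
Ptch1 probe A_55_P2741038: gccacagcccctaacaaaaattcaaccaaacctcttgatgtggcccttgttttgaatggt
Cd44 probe A_55_P2166501: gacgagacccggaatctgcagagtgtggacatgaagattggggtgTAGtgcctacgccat
Cd44 probe A_55_P2166488: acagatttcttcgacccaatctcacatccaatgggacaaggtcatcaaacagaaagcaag

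On mm9, the build of the file headers, the Lrig1 probes lie at chr6:94554681-94554740 and chr6:94555359-94555418, on the minus strand. The Gli1 probe designed on NM_010296 lies at chr10:126766967-126767026, and the one designed on the cDNA AK157048 at chr10:126775021-126775080, upstream of it on the minus strand. The Trp63 probes follow each other on the plus strand of chromosome 16. The probe for the cDNA AK138305 lies at chr16:25821344-25821403 and that for the cDNA AK048623 at chr16:25867718-25867777. Those for NM_001127261 and NM_011641 lie at chr16:25871159-25871218 and chr16:25892012-25892071. The 60 bases of the Ptch1 probe shown span 344 bases of the genome, from chr13:63644484-63644827 on the minus strand, so the probe joins separated stretches. The Cd44 probes shown lie at chr2:102654278-102654337 and chr2:102677971-102678030 on the minus strand. The headers give no exon or UTR annotation, and none was used here.

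Of the 22 probes, 17 were well above background on all 3 arrays and 5 on none. They divided by gene: 7 members were measured by all their probes and 3 members, Shh, Lgr5 and Igfbp5, by none. No member spot was saturated or flagged as an outlier. Processed signal is given in arbitrary units after the scanner software's background subtraction, and its SD comes from that software's error model. This SD is close to a fixed share of the signal for bright spots and holds no difference between cultures. Normalized differences are log2 processed signal minus the array's 75th percentile, which was 216 on siKrt15, 180.4 on siNeg and 191 on mock. Signals of different probes are not on a common scale and are compared only across arrays.

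**Figure D1:**
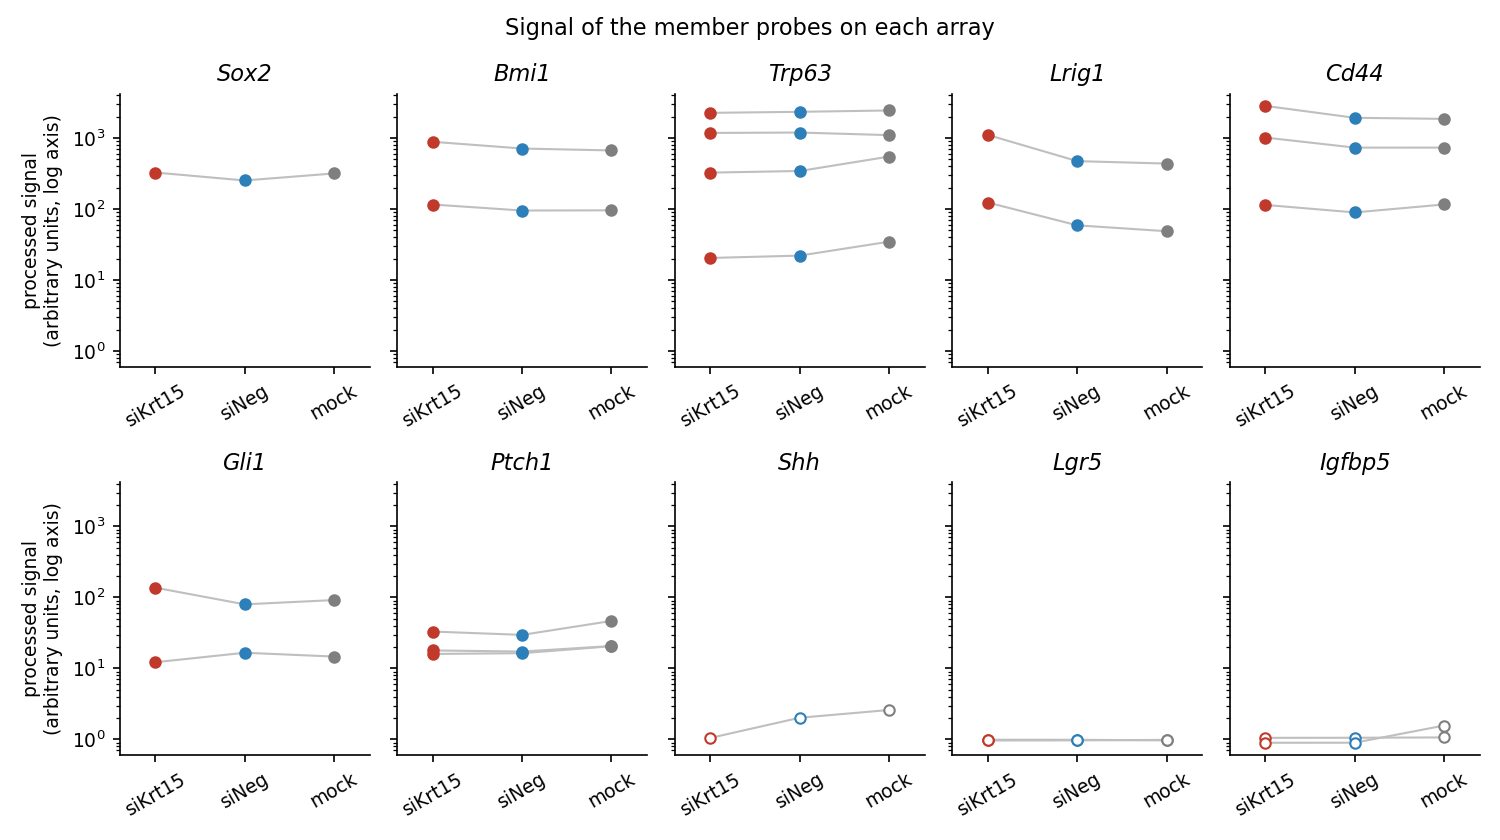
Processed signal (arbitrary units, log axis) of each of the 22 member probes on the siKrt15, siNeg and mock arrays, 1 panel per gene with a line joining the values of 1 probe. Filled points were well above background and carry error-model SDs smaller than the points, and open points were not well above background. Both Lrig1 probes are highest on siKrt15, and the probes of Shh, Lgr5 and Igfbp5 are open on all 3 arrays.

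Among the stem cell genes, Lrig1 stood apart. It was higher in siKrt15 than in either control, by both of its probes. The first probe, A_51_P116137, had a signal of 1099.8 ± 109.98 in siKrt15, against 471 ± 47.1 in siNeg and 435 ± 43.5 in mock (error-model SD, 1 array each). The second, A_55_P2744324, had 123 ± 12.3 in siKrt15, against 58.7 ± 5.97 in siNeg and 48.5 ± 4.97 in mock. On both probes siKrt15 was the highest array, siNeg came next and mock was lowest. After normalization the probes differed by 0.96 ± 0.20 and 0.80 ± 0.21 between siKrt15 and siNeg on the log2 scale, and by 1.16 ± 0.20 and 1.16 ± 0.21 between siKrt15 and mock. The mean of the probes was 0.88 ± 0.15 against siNeg, or 1.85-fold, and 1.16 ± 0.15 against mock, or 2.24-fold. SiNeg lay 0.28 ± 0.15 above mock. These SDs of means treat the spots of a gene as independent.

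No replicate arrays exist, so neither difference could be tested. The controls differ in treatment and are 1 array each, so their difference does not measure spread between cultures. For Lrig1 that difference was 0.28, beside 0.88 between siKrt15 and siNeg, which shares the siNeg array. Of all measured genes, 2.23% lay above Lrig1 in siKrt15 against siNeg and 1.48% in siKrt15 against mock, while 10.5% lay above it in siNeg against mock. The value against siNeg ran from 0.67 with normexp background correction to 1.16 with spike-in scaling over 7 scalings, and the value against mock from 0.85 to 1.26 under the same 2 settings. Lrig1 was above 0 in all of them. With normexp the dimmer probe, A_55_P2744324, stood at 0.40 against siNeg and 0.61 against mock. The brighter probe, A_51_P116137, stood at 0.94 and 1.09 there.

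Sox2 did not share this pattern. Its probe had a signal of 325 ± 32.5 in siKrt15, against 251 ± 25.2 in siNeg and 316 ± 31.6 in mock. The siNeg array was the lowest, and siKrt15 and mock differed by less than their SDs. The log2 difference was 0.11 ± 0.20 for siKrt15 against siNeg, −0.14 ± 0.20 against mock and −0.25 ± 0.20 for siNeg against mock. After normalization siKrt15 lay between the controls, which differed from each other by more than siKrt15 differed from either.

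Bmi1 was close to even across the arrays. The brighter probe, A_55_P2505621, had 881 ± 88.1 in siKrt15, against 708 ± 70.8 in siNeg and 666 ± 66.6 in mock. The other, A_51_P121547, had 115 ± 11.6, against 94.8 ± 9.54 and 95.5 ± 9.60 in the same order. SiKrt15 was the highest array by both, but its 75th percentile was also the highest. After normalization the mean over both probes was 0.04 ± 0.14 against siNeg and 0.16 ± 0.14 against mock.

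Cd44 was slightly higher in siKrt15 on 2 of its 3 probes. Probe A_55_P2912261, at chr2:102652758-102652817, had 2819 ± 282 in siKrt15, against 1918 ± 192 in siNeg and 1852 ± 185 in mock, a log2 difference of 0.30 ± 0.20 and 0.43 ± 0.20. Probe A_55_P2166501, which covers the end of the coding sequence, had 1011 ± 101 in siKrt15, against 729 ± 72.9 in siNeg and 729.9 ± 73.0 in mock, or 0.21 ± 0.20 and 0.29 ± 0.20. On these probes siKrt15 was the highest array and the controls were level. The probe farthest upstream, A_55_P2166488, had 114 ± 11.4 in siKrt15, against 89.2 ± 8.97 in siNeg and 115 ± 11.6 in mock, and lay at 0.09 ± 0.20 and −0.20 ± 0.20. Cd44 is known for extensive alternative splicing, and whether this probe reads a variable exon was not annotated here. The mean of the 3 probes was 0.20 ± 0.12 against siNeg and 0.17 ± 0.12 against mock.

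Trp63 gave a different answer by probe. The probe for NM_011641 had 2251 ± 225 in siKrt15, against 2328 ± 233 in siNeg and 2432 ± 243 in mock. That for NM_001127261, within coding sequence, had 1174 ± 117 in siKrt15, against 1189 ± 119 in siNeg and 1094 ± 109 in mock. By these probes the siNeg array lay at 0.02 ± 0.20 and 0.20 ± 0.20 against mock. The probes for the cDNAs AK138305 and AK048623 differed more from mock, with lower signal on both siRNA arrays. AK138305 had 324 ± 32.5 in siKrt15 and 342 ± 34.2 in siNeg, against 545 ± 54.5 in mock. AK048623 had 20.4 ± 2.25 in siKrt15 and 22 ± 2.39 in siNeg, against 34.6 ± 3.58 in mock.

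For these cDNA probes the log2 difference was −0.93 ± 0.20 and −0.94 ± 0.22 for siKrt15 against mock, and −0.59 ± 0.20 and −0.57 ± 0.22 for siNeg against mock. The RefSeq probes stood at −0.29 ± 0.20 and −0.07 ± 0.20 for siKrt15 against mock. Over 7 scalings, AK138305 stayed between −0.76 and −0.50 for siNeg against mock, whereas AK048623 ranged from −0.74 to −0.14. Between siKrt15 and siNeg all 4 probes lay below 0, from −0.37 ± 0.22 to −0.28 ± 0.20, with a mean of −0.32 ± 0.10. Of all measured genes, 77.2% lay above that −0.32. The mean was −0.05 with spike-in scaling. The mean against mock was −0.56 ± 0.10, and −0.29 when the brightest probe alone was taken.

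Lgr5 and Igfbp5 were not well above background on any array. The Lgr5 probes had signals of 0.991 and 0.967 in siKrt15, 0.989 and 0.971 in siNeg, and 0.970 and 0.987 in mock. The Igfbp5 probes had 1.05 and 0.898 in siKrt15, 1.06 and 0.900 in siNeg, and 1.07 and 1.57 in mock. The lowest signal that counted as well above background was 4.51 on siKrt15, 4.49 on siNeg and 4.56 on mock, so no difference could be measured for these genes.

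In the Hedgehog branch the ligand was not detected either. The Shh probe, at chr5:28783456-28783515, had a signal of 1.05 in siKrt15, 2.02 in siNeg and 2.60 in mock, below the level that counted as well above background on each array. The receptor and the effector were well above background on all 5 of their probes. A stricter filter on dim probes, at the 25th percentile, kept only the brightest probe of each. In siKrt15 against siNeg, Gli1 then stood at 0.52 and Ptch1 at −0.11.

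Gli1 had 2 probes that went opposite ways. The NM_010296 probe had 137 ± 13.7 in siKrt15, against 79.9 ± 8.04 in siNeg and 91.8 ± 9.23 in mock, and the AK157048 probe had 12.2 ± 1.57 in siKrt15, against 16.6 ± 1.94 in siNeg and 14.7 ± 1.78 in mock. SiKrt15 was thus the highest array by one probe and the lowest by the other. The log2 difference against siNeg was 0.52 ± 0.21 for NM_010296 and −0.70 ± 0.25 for AK157048, and against mock 0.40 ± 0.20 and −0.44 ± 0.25. Each probe kept its sign in all 7 scalings in both comparisons. The mean over both, −0.09 ± 0.16 against siNeg, therefore describes neither, and it was 0.52 when the brighter probe alone was used.

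Ptch1 was lowest on the siRNA arrays. Probe A_65_P18909, at chr13:63638793-63638852, had 33.04 ± 3.44 in siKrt15 and 29.7 ± 3.11 in siNeg, against 46.6 ± 4.76 in mock. The coding probe A_55_P2741038 had 15.99 ± 1.89 in siKrt15 and 16.4 ± 1.92 in siNeg, against 20.6 ± 2.29 in mock, and A_51_P127435 had 17.9 ± 2.07 and 17.3 ± 2.04, against 20.7 ± 2.33. On all 3 probes mock was the highest array, and siKrt15 and siNeg lay close together. The mean log2 difference was −0.20 ± 0.13 for siKrt15 against siNeg, −0.53 ± 0.13 against mock and −0.33 ± 0.13 for siNeg against mock. In siNeg against mock 95.7% of measured genes lay above Ptch1. With normexp background correction the value there was −0.05, and the siKrt15 to siNeg value turned to 0.07 with spike-in scaling.

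**Figure D2:**
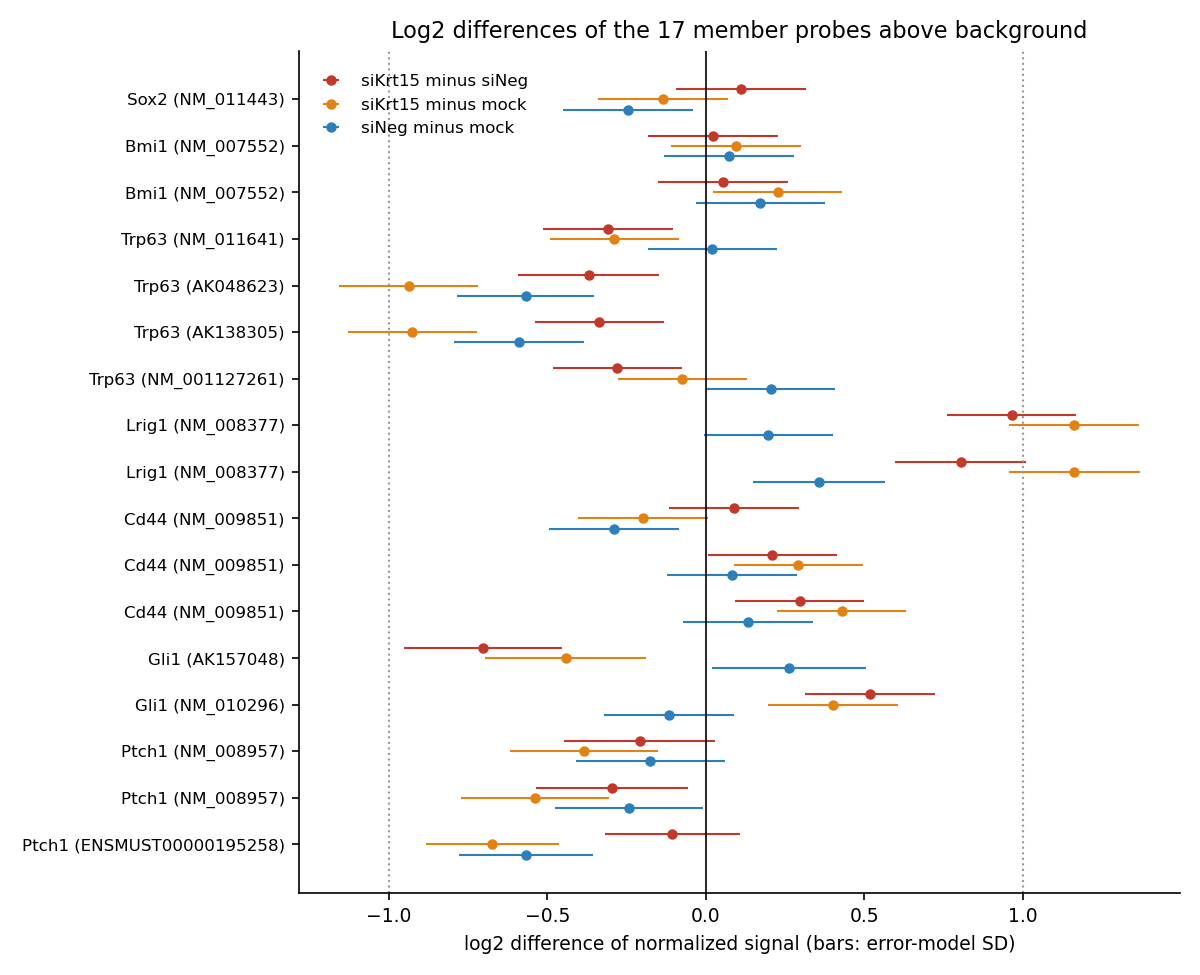
Log2 difference of normalized signal for the 17 member probes above background, named by gene and design accession, with error-model SDs as bars and dotted lines at 2-fold. The Lrig1 probes lie near or past 2-fold higher in siKrt15, the Gli1 probes lie on opposite sides of 0, and the Trp63 probes for AK048623 and AK138305 lie below 0 in both comparisons with mock.

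Counted at 2-fold, 0 of the 7 measured members were apart in siKrt15 against siNeg, beside 3.70% of 17119 genes, of which 1.70% of the total were higher in siKrt15. In siKrt15 against mock, 1 of 7 (Lrig1) was higher, beside 2.18% of 17128 genes, and 3.43% of all genes were apart in either direction. In siNeg against mock 0 of 7 were apart, beside 0.402% of 17414 genes, with 0.356% higher in siNeg. At 1.5-fold, Lrig1 was the 1 member of 7 apart in siKrt15 against siNeg, and it was higher, beside 4.80% of genes higher and 13.4% apart. At that threshold 1 of 7 was again higher against mock, beside 5.83% higher and 13.5% apart, and 0 of 7 were apart in siNeg against mock, beside 2.42% higher and 3.28% apart. The median of the 7 was 0.04 in siKrt15 against siNeg, beside −0.08 over all genes, and −0.02 against mock, beside −0.06. In siNeg against mock it was −0.02, beside 0.02. With 1 array per group these counts have no test. The comparisons share arrays: siKrt15 enters 2 of them, and so do siNeg and mock.

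**Figure D3:**
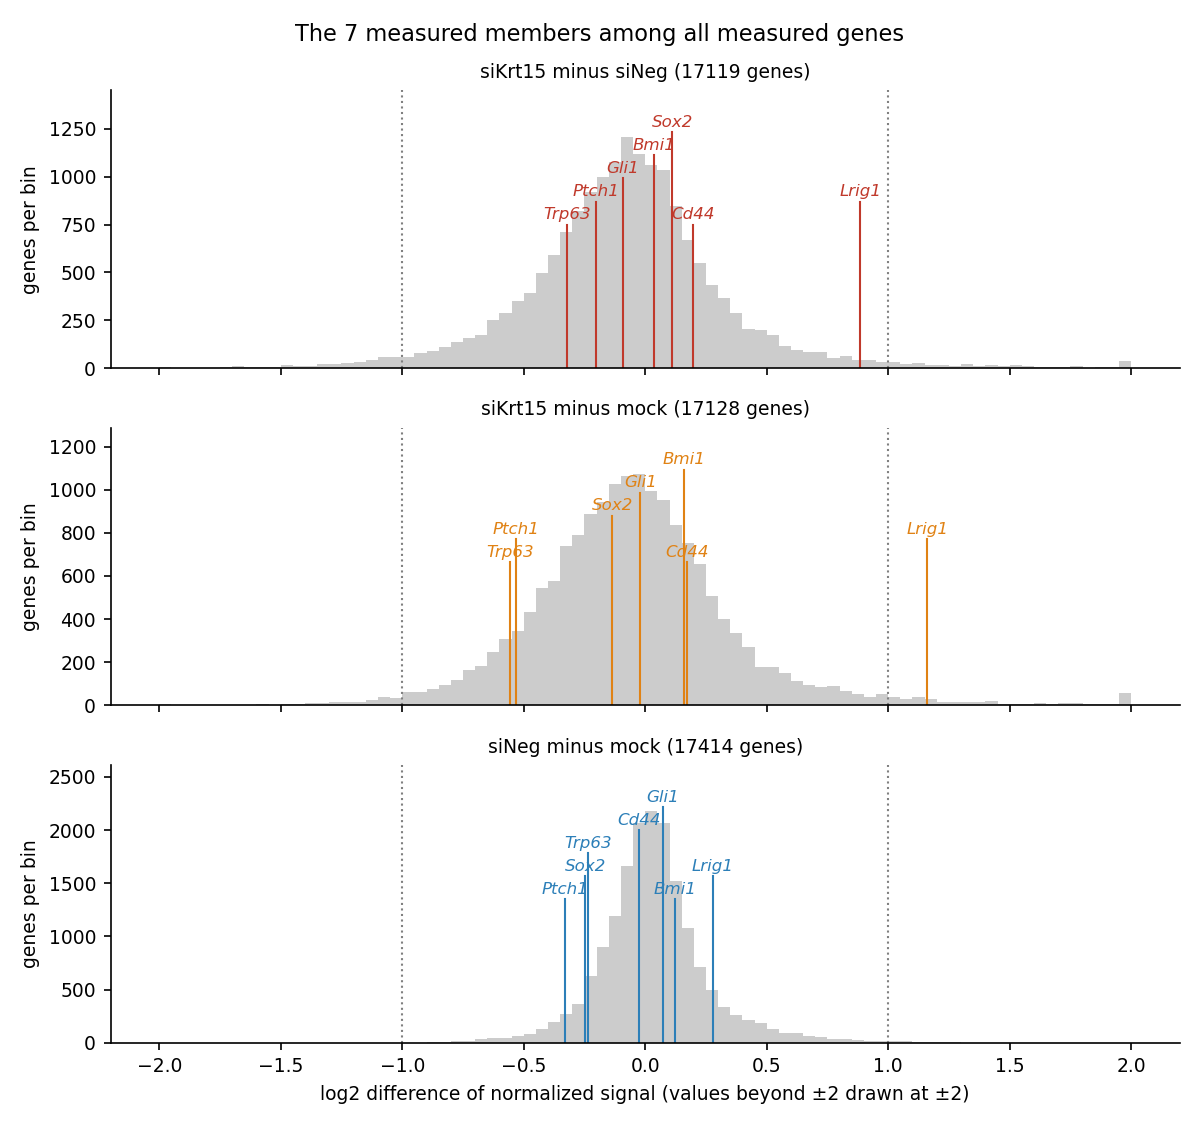
The 7 measured members (coloured lines) over the histogram of all measured genes (grey, bins of log2 difference) in each of the 3 comparisons, with dotted lines at 2-fold. Lrig1 lies in the upper tail of both siKrt15 comparisons, at 0.88 and 1.16, where the other 6 members lie between −0.56 and 0.20, and Ptch1 lies in the lower tail of siNeg minus mock, at −0.33.

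The dependence of the members on the processing is plotted for both siKrt15 comparisons. Lrig1 was the highest member under each of the 10 settings, while Gli1 crossed 0 in both comparisons and Ptch1 crossed it against siNeg.

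**Figure D4:**
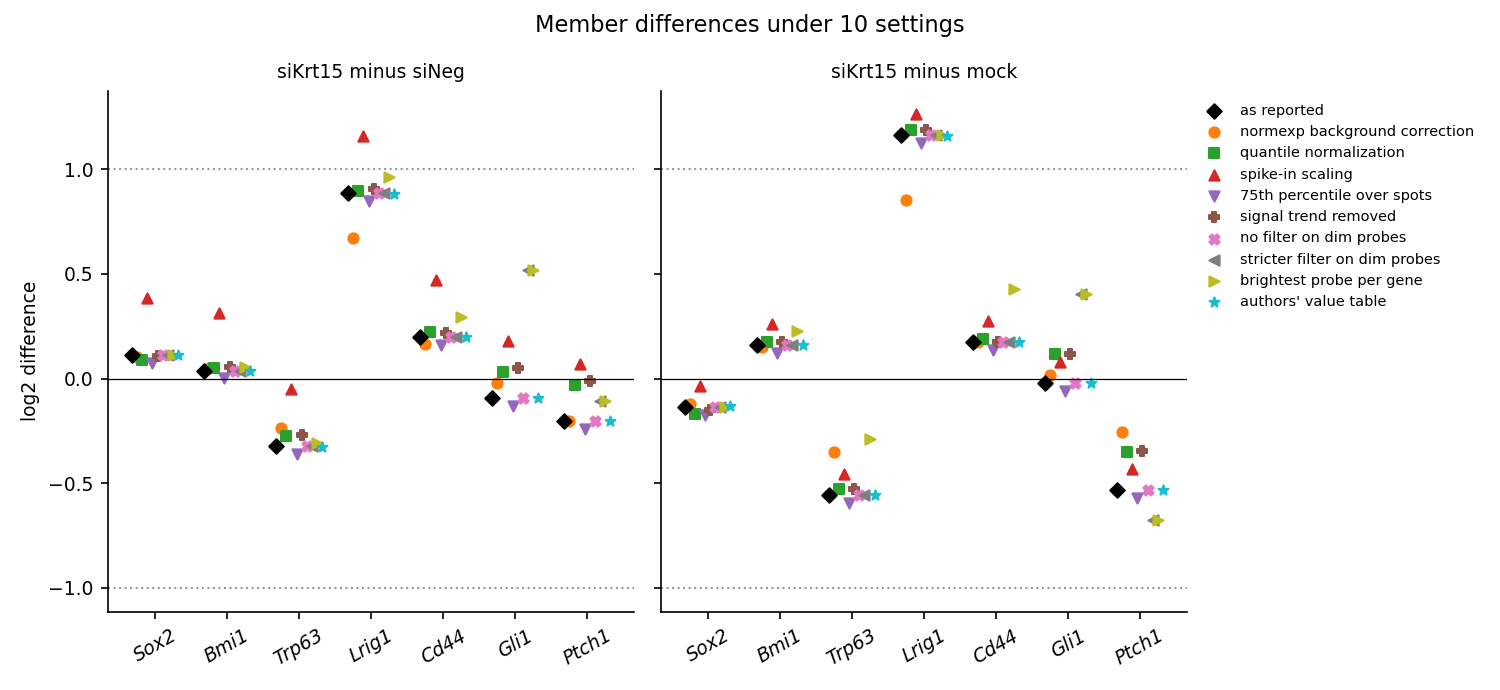
Log2 difference of the 7 measured members in siKrt15 minus siNeg and siKrt15 minus mock, as reported (black) and under 9 other settings (symbols), with dotted lines at 2-fold. Lrig1 spans 0.67 to 1.16 against siNeg and 0.85 to 1.26 against mock, above the other 6 members under each setting.

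In what follows a pair of values without labels gives the log2 difference of siKrt15 against siNeg first and against mock second. Each list's counts at 2-fold stand beside 3.70% of all genes apart in siKrt15 against siNeg and 3.43% against mock. In siNeg against mock the share was 0.402%. The medians over all genes were −0.08, −0.06 and 0.02 in the same order. Genes of the Hedgehog pathway were taken from 4 lists (ligand release, receptors, transduction and targets) that together hold 50 genes. The members Shh, Ptch1 and Gli1 are among them and enter the counts and medians. Without members, 38 genes were measured in siKrt15 against siNeg and 40 against mock. Of these, 6 were above background on no array. Of the 40 measured in siKrt15 against siNeg, 1 passed 2-fold upward and 1 downward, and the median was −0.11. Against mock 2 of 42 passed upward and 1 downward, and the median was −0.01. In siNeg against mock 0 of 42 passed either way, with a median of 0.06.

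Of ligands and genes of ligand release and distribution, 5 of 9 were measured against siNeg, and none reached 2-fold. Shh, Dhh and Scube1 were above background on no array. Ihh, the Indian hedgehog ligand, had a low signal of 6.61 in siKrt15, against 10.9 in siNeg and 11.1 in mock, a log2 difference of −0.98 and −0.93 that shrank to −0.31 and −0.26 under the mildest scaling. The secreted ligand carrier Scube3 was higher on each of its 4 probes in siKrt15 than in siNeg (0.15 to 0.98), with a mean of 0.59, and 0.67 against mock. Scube2 stood at −0.33 and −0.79, and the ligand transporter Disp1 at 0.29 and 0.51.

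Of receptors and co-receptors, 7 of 8 were measured and all 7 lay below 0 in siKrt15 against siNeg, from −0.56 to −0.08, although Smo, Ptch1, Boc and Cdon lay above 0 with spike-in scaling. Of all genes, 60.6% lay below 0 there. Against mock 5 of the 7 lay below 0, beside 58.1% of all genes, and Boc (0.09) and Cdon (0.14) lay above it. The median was −0.23, beside −0.08 for all genes, and with spike-in scaling 0.04, beside 0.19. The co-receptor Gas1 stood at −0.56 and −0.54 against mock, and Lrp2 at −0.53 and −0.54. Smo, the signal transducer, was at −0.23 and −0.10. The antagonist Hhip was above background on no array.

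Of genes that carry or modulate the signal inside the cell, 18 of 20 were measured, and against siNeg 1 passed 2-fold, downward. That was Prkaca, the catalytic subunit of protein kinase A, which holds Gli proteins in check, at −1.49 against siNeg and −1.59 against mock. Its brighter probe had 1174 in siKrt15, against 2858 in siNeg and 3350.2 in mock. Arrb1, a beta-arrestin that can bind Smo, stood at 0.96 against siNeg and 1.24 against mock, with signals of 155 in siKrt15, 66.7 in siNeg and 58.3 in mock. Gli3, the main repressor among the Gli factors, was at 0.59 and 0.88, with 241 in siKrt15, against 134 in siNeg and 116 in mock. Gsk3b was lower on each of its 4 probes, with a mean of −0.54 and −0.61 against mock, and the ciliary receptor Gpr161 stood at −0.35 and −0.33. Evc, a ciliary protein that binds Smo, had probes at −1.20 and 0.05 against siNeg, and Gli2 was above background on no array.

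Genes known as Hedgehog targets in other tissues gave no common direction. Of 17 genes 13 were measured against siNeg, and their median was −0.09. The 1 gene past 2-fold was osteopontin (Spp1), also a target of many other pathways, at 2.09 against siNeg and 2.47 against mock, with 91.8 in siKrt15, against 17.9 in siNeg and 14.6 in mock. Mycn stood at 0.43 and 0.27, Sfrp1 at −0.33 and −0.21, and Nkx2-1 at −0.56 and −0.43.

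The wider list of dental epithelial stem and cervical loop genes held 33 genes, of which 30 were measured. The median was −0.02 in siKrt15 against siNeg and −0.01 against mock, and against siNeg 1 gene passed 2-fold upward and 1, Krt15 itself, downward. The upward one was Spry1, a feedback inhibitor of FGF signalling, at 1.09 and 0.90, with 975 in siKrt15, against 382 in siNeg and 461 in mock. The ETS factors Etv4 and Etv5, which respond to FGF, stood at 0.93 and 0.74 against siNeg and 0.86 and 0.66 against mock. Fst, an inhibitor of activin, was at 0.52 and 0.77, and the dental transcription factor Ascl5 at −0.38 and 0.06.

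Lists were also made around Lrig1, Bmi1, Lgr5, Trp63, Igfbp5 and Cd44, and all but that of Bmi1 include the member itself. Around Lrig1, its relatives Lrig2 and Lrig3 stood at −0.27 and −0.16 in siKrt15 against siNeg and at −0.30 and −0.15 against mock. Of the ErbB receptors that Lrig1 restrains, Erbb3 was at 0.29 and 0.19 and Erbb4 at −0.13 and −0.04. Among the 7 genes of that list Lrig1 was the one at 2-fold against mock.

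Of 16 listed genes of Polycomb repressive complex 1 other than Bmi1, all were measured and 0 reached 2-fold in either comparison. Their medians were 0.01 and −0.11. The chromobox genes Cbx6 (0.50 and 0.52), Cbx2 (0.23 and 0.21) and Cbx7 (−0.23 and −0.27) and the ring finger gene Pcgf3 (−0.31 and −0.43) lay farthest out against siNeg. Of the Lgr and R-spondin genes, 6 of 11 were measured, with a median of −0.13 against siNeg, and 0 reached 2-fold. Lgr5, Rspo2 and Rspo3 were above background on no array. Ascl2, a Wnt target that works with Lgr5 in the gut, stood at 0.56 and 0.62, the ubiquitin ligase Rnf43 at −0.44 and −0.38, the ligand Rspo1 at −0.36 and −0.48, and the Wnt target Axin2 at 0.30 and 0.28.

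Of 19 genes of the p63 family and its epithelial targets, all were measured, with a median of −0.12 against siNeg and −0.02 against mock, and against siNeg 1 passed 2-fold, downward. This was the homeobox gene Dlx6, at −1.37 and −1.26, with a low signal of 8.62 in siKrt15, against 18.5 in siNeg and 18.3 in mock. The basement membrane gene Fras1 stood at 0.71 and 1.08, with probes at −0.11 and 1.53 against siNeg. Dst, a hemidesmosomal linker, was at −0.58 and −0.63, Dlx5 at −0.39 and −0.53, and P-cadherin (Cdh3) at 0.32 in both comparisons.

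Igfbp5 was not detected, but 12 of the 16 genes of the IGF axis were measured. Against siNeg 2 passed 2-fold upward and 1 downward, beside 1.70% of all genes higher and 3.70% apart, and the median was −0.13. Against mock 3 passed upward and 0 downward, beside 2.18% of all genes higher, and the median was −0.02. The insulin receptor substrate Irs1 was at 1.79 and 2.30, with 165 in siKrt15, against 40.0 in siNeg and 29.7 in mock. Igfbp7, a secreted IGF-binding protein, was at 1.70 and 2.31, with 1284 in siKrt15, against 330.1 in siNeg and 229 in mock. Stc2, an inhibitor of the protease Pappa, had a normalized signal 0.467 times that of siNeg and 0.591 times that of mock. Pappa, which cleaves IGF-binding proteins, was 1.74-fold and 2.14-fold higher. Igfbp3 was at 0.57 and 0.44, Igfbp2 at −0.70 and −0.90, the receptor Igf1r at −0.47 and −0.67, and Irs2 at −0.40 and −0.57. Irs1, Igfbp7, Stc2 and Pappa rest on 1 probe each.

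Of 14 genes around Cd44 and hyaluronan 11 were measured against siNeg, and the median was −0.05. The 1 gene past 2-fold was Hmmr, a hyaluronan receptor that also works on the mitotic spindle, at 1.54 and 1.61, with probes from 0.78 to 2.05 against siNeg. Ezrin (Ezr), which links Cd44 to actin, stood at 0.58 and 0.47, the hyaluronidase Hyal1 at −0.51 and −0.64, the splicing factor Esrp1 at −0.42 and −0.14, and Cemip at −0.88 and −0.73.

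**Figure D5:**
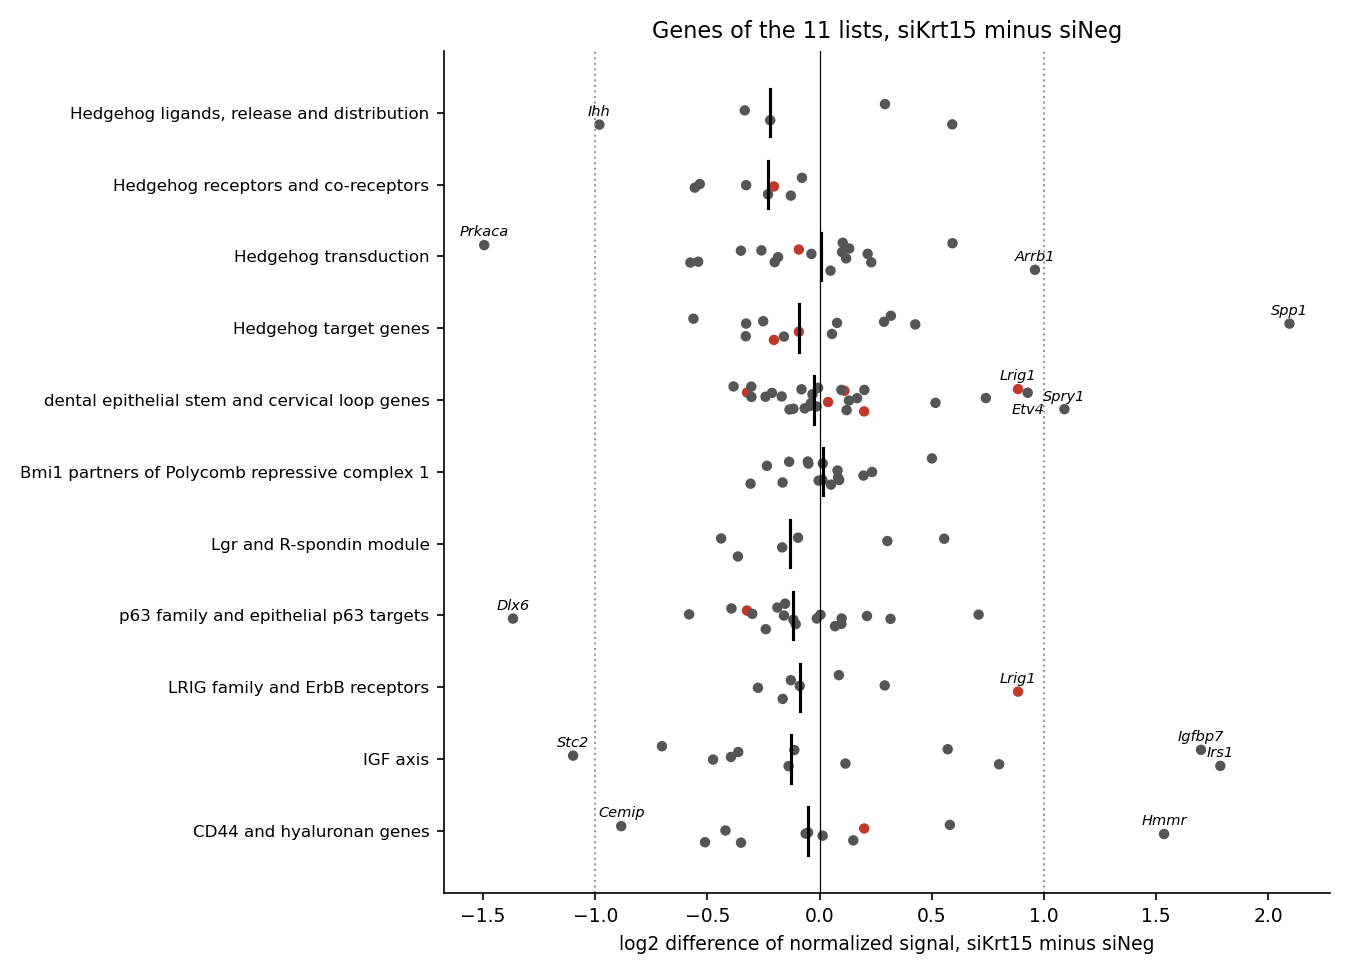
Log2 difference of normalized signal, siKrt15 minus siNeg, for the measured genes of the 11 lists (points, spread vertically for legibility), with members in red, list medians as bars and dotted lines at 2-fold. Krt15 (−2.88) counts in the median of the dental epithelial list but is left off. The medians lie between −0.23 and 0.01, and Spp1, Irs1, Igfbp7 and Hmmr are the genes farthest to the right.

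By likeness of pattern, the genes nearest to Lrig1 over the 3 arrays were Fancb (0.86 against siNeg and 1.15 against mock), Cenpn (0.91 and 1.16) and Fgd3 (0.86 and 1.14). Likeness was the Euclidean distance between normalized log2 values centred on each gene's mean, 0.02 for each of them, among 12681 other genes at or above the 25th percentile of mean level. A pattern over 3 arrays has few degrees of freedom, and 285 of those genes lay within a distance of 0.3.

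The label of the line was compared with marker lists. All 10 dental epithelial markers, among them Krt5, Krt14 and Sp6, were above background on all 3 arrays. Of 7 markers of differentiating ameloblasts, 5 (Ambn, Enam, Mmp20, Amtn and Odam) were above it on none. Klk4 was above it on all 3 arrays, at 44.3 in siKrt15, 34.7 in siNeg and 35.4 in mock. Amelx was measured in siNeg against mock, at 0.13, but in neither siKrt15 comparison. Markers of dental mesenchyme and fibroblasts were above background for 9 of 12 genes. In these lists a gene counted if at least 1 of its probes was above background on all 3 arrays. Col1a2 counted by 1 of 4 probes and Cd68 by 3 of 3. Of all non-control spots, 67.3% to 69.2% were well above background, depending on the array. That share counts single spots, so the gene counts cannot be set against it. Before scaling between arrays, 12 mesenchymal probes summed to 832 (siKrt15), 635 (siNeg) and 646 (mock). The sums over 17 dental epithelial probes were 409935, 399688 and 372530 in the same order. Such sums weigh bright probes most, and those of different lists are not on a common scale. The median log2 difference of the 9 mesenchymal genes was −0.30 in siKrt15 against siNeg, beside −0.08 for all genes, and −0.36 against mock, beside −0.06. They went both ways in siKrt15 against siNeg, from −1.07 to 1.94, and Pdgfrb and Lum were above background on no array. Of endothelial, blood and immune markers 8 of 12 were above background, with summed signals of 6915, 7242 and 7819 on the same arrays, while Cdh5, Kdr, Tek and Adgre1 were not. Their part in the member differences was not tested.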

How the data were processed

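Cy3-labelled cRNA was hybridised to 1-colour Agilent mouse arrays, all on 1 slide, per the labels' protocols and the file headers. Agilent Feature Extraction 11.5.1.1 is named in the submitters' processing notes. The deposited scanner files give the processed signal and its error as an intensity per spot on a linear scale, with flags for well above background, saturation and outliers. The authors' value table holds log2 values. Set against the scanner files it follows log2 processed signal minus a constant near each array's 75th percentile, uncentred, with medians of −3.72 (siKrt15), −3.51 (siNeg) and −3.52 (mock). Its direction follows the scanner values.

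Non-control spots well above background numbered 39883 (67.3%) on siKrt15, 41025 (69.2%) on siNeg and 40901 (69.0%) on mock, of 59305, and 0 were saturated. The number of arrays limits the precision. Outlier spots were left out. The log2 processed signal was scaled to the array's 75th percentile over probes. A probe was measured where it was well above background and unsaturated on both arrays, and a gene's difference is the mean over its measured probes. Probes took current names through the RefSeq table of GRCm38.p6 (32989 by accession, 10224 by symbol, 520 by synonym), used for names only. The other 12865 probes kept their names and were left out of gene counts.

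With 1 array per group no test was possible, and the threshold was 2-fold. Members and lists were chosen with earlier results of these data known. Named genes were the members, Krt15, list genes at 2-fold in siKrt15 against either control, and, in each list, up to 4 more that lay farthest from 0 in siKrt15 against siNeg. Not every gene so chosen is reported here. Alternatives were normexp (limma 3.58.1, offset 50), quantile, spike-in and per-spot scaling, a lowess signal trend removed (statsmodels 0.14.6), other filters on dim probes, the brightest probe, the authors' table and a 1.5-fold threshold. The procedure was tested on simulated data with known folds.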

Additional observations from a re-analysis of the deposited data

How the results depend on the processing

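No paired analysis was possible because each group is 1 array. At 2-fold, the count of members against siNeg was 0, and 1 with spike-in scaling, with no filter on dim probes and at 1.5-fold. Against mock it was 1, but 0 with normexp and 2 with no filter. Lrig1 was the one under spike-in scaling and at 1.5-fold, and without the filter Shh, not above background, was added at −1.20 and −1.48. Of the 189 recomputed member differences, 152 moved by less than their error-model SD and 37 by more, 13 of these with spike-in scaling and 9 with the brightest probe. Spike-in scaling put the median of all genes at 0.19 (siKrt15 against siNeg), 0.04 (siKrt15 against mock) and −0.15 (siNeg against mock), beside −0.08, −0.06 and 0.02.

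Over all genes, those at least 2-fold apart numbered 633, 587 and 70 in these 3 comparisons, against 105, 126 and 0 with normexp, 2547, 2195 and 1249 with no filter, 273, 341 and 4 with the stricter filter and 2297, 2315 and 571 at 1.5-fold. With spike-in scaling siNeg against mock gave 45. Genes at 2-fold were higher rather than lower in 46.0%, 63.7% and 88.6% of cases, against 83.1%, 76.9% and 53.3% with spike-in scaling, 72.6%, 82.2% and 84.1% with quantile normalization and 72.9%, 81.8% and 84.9% with the trend removed. In the siKrt15 comparisons it was 78.1% and 81.0% with normexp and 75.8% and 78.3% with the stricter filter, but 18.7% and 29.4% with no filter and 35.7% and 43.1% at 1.5-fold. In siNeg against mock it was 66.9% with no filter, 73.9% at 1.5-fold and 100% of 4 genes with the stricter filter. Signal over background left Shh, Lgr5 and Igfbp5 unmeasured. With normexp the siKrt15 to mock difference was −0.26 for Ptch1 and −0.42 for the Trp63 probe AK048623, beside −0.53 and −0.94, and the siKrt15 to siNeg difference of the Gli1 probe AK157048 was −0.31, beside −0.70. The cause of these shifts was not tested.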
